A study of Drosophila melanogaster with 4 samples.

Results

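The regions described here are the Rhino (Rhi) ChIP-seq peaks on the assembled X chromosome of *Drosophila melanogaster* (chrX of the dm3 build, without the separate contig XHet). They were chosen by position alone. The list called in the control IP held 165 of them among 1066 peaks in all (15.5%), and the list called after depletion of Enok held 76 among 817 (9.30%). The question of the study was whether the acetyltransferase Enok is needed for Rhi to occupy its sites in the ovary, and on X it can be asked region by region. The 2 lists were compared by number, position along the chromosome, spacing, length and overlap.

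Rhi is a germline member of the HP1 family found at dual-strand piRNA clusters, where its chromodomain contacts methylated histone H3 and where it is needed for their transcription. These clusters are heterochromatic stretches packed with transposon fragments whose transcripts are cut into piRNAs, the small RNAs that guide silencing of transposons in the germline. On X such sequence is concentrated at the chromosome end, next to the telomere, and at the base of the arm, where euchromatin passes into the heterochromatin around the centromere. The arm between them is largely gene-rich euchromatin.

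In both groups MTD-Gal4, a combination of germline Gal4 drivers, drove an shRNA transgene inserted at the attP2 site. In GFP_KD, the control, it was P{VALIUM20-EGFP.shRNA.1}attP2 against EGFP, and in *enok*_KD it was P{TRiP.HMS02634}attP2 against *enok*. Flies were 2 to 3 days old and kept at 29 °C, and chromatin came from whole ovaries (90 pairs for a Rhi ChIP, per the methods of the study), so that the somatic cells of the ovary, in which MTD-Gal4 is not active, were part of the material. The title and the antibody in the protocol name Rhino, whereas the design text of the series names RNA Pol II. No expression was measured in these libraries, and the level of *enok* and the cell types could not be checked. Each group had 1 input and 1 IP library, so no difference below has a replicate check, no test was run, and all intervals cover counting error only.

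The depth was recovered from the deposited values. In uniquely mapped reads, the IPs had 8024682 (GFP_KD) and 6657843 (*enok*_KD), a ratio of 0.830, and the inputs 7742110 (GFP_KD) and 8196249 (*enok*_KD). The shortest peak was 158 bp in the whole GFP_KD list and 189 bp in the whole *enok*_KD list, so that 25 of the 165 GFP_KD X peaks were shorter than any *enok*_KD peak. Both differences bear on the number of peaks, and their part in it was not tested beyond the settings given below.

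X had the fewest *enok*_KD peaks relative to GFP_KD among the large arms. The 76 *enok*_KD peaks were 46.1% of the 165 in GFP_KD (95% interval 34.6 to 60.8). On all other chromosomes together the percentage was 82.2% (741 of 901, interval 74.5 to 90.7). The arm closest to X was 3R with 58.1% (54 of 93, interval 40.7 to 82.1), followed by 2L with 66.9% (interval 49.9 to 89.4) and 3L with 74.8% (interval 55.6 to 100.3). Over 2L, 3L and 3R together the percentage was 67.1% (interval 56.2 to 79.9), and on 2R it was 83.0% (interval 66.0 to 104.3). The percentage of X was 0.560 of that on all other chromosomes (95% counting interval 0.420 to 0.747). It was 0.687 of that on 2L, 3L and 3R together (0.498 to 0.947) and 0.616 of that on 3L (0.416 to 0.913). These intervals exclude equal percentages. The ratio of X to 2L was 0.688 (0.465 to 1.02) and that to 3R 0.793 (0.515 to 1.22), and these intervals include equal percentages. All these intervals count each peak as independent. Peaks lay in runs, however, and the 165 GFP_KD X peaks formed 47 groups when joined within 10 kb. The intervals are therefore too narrow, and whether X differs from the other arms was not tested. The summed length of X peaks was 91.0 kb for GFP_KD but 52.9 kb for *enok*_KD, or 58.1%, against 95.7% on all other chromosomes. By this measure X was not the lowest large arm, as 3R had 53.7%. The percentage of covered length was 61.4% on 2R, 85.7% on 2L and 120.4% on 3L. When only the 140 GFP_KD peaks of at least 189 bp were counted, the number in *enok*_KD was 54.3% of that in GFP_KD. The same limit gave 97.6% on all other chromosomes, 79.0% on 2L, 3L and 3R together and 66.7% on 3R alone. With the depth scaling described below added, which is not an exact depth match, 124 of the 165 GFP_KD X peaks were left beside the 76 of *enok*_KD.

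**Figure D1:**
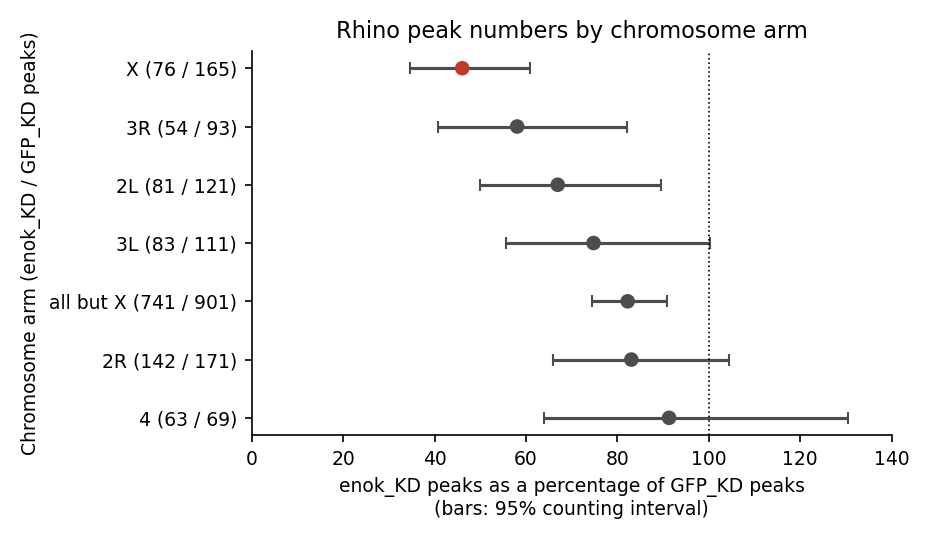
Number of Rhino peaks in *enok*_KD as a percentage of the number in GFP_KD (x axis, percent) for each large chromosome arm and for all chromosomes but X (y axis, with both numbers in brackets). Points are the percentages and bars their 95% counting intervals, from 1 library per group. X lies lowest at 46.1%, followed by 3R at 58.1% and 2L at 66.9%.

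Peaks were gathered at both ends of X in either list. In GFP_KD the windows of 1 Mb with most peaks were 21 to 22 Mb with 41 peaks, and 0 to 1 Mb and 20 to 21 Mb with 29 each. In *enok*_KD the same windows led, with 26 peaks at 21 to 22 Mb, 22 at 0 to 1 Mb and 13 at 20 to 21 Mb. Of 23 windows, 4 held no GFP_KD peak and 11 held no *enok*_KD peak. The distal 1 Mb therefore had 75.9% as many peaks in *enok*_KD as in GFP_KD, the 1 to 18 Mb stretch 42.4% (14 and 33 peaks), and the 18 to 20 Mb stretch 5% (1 and 20 peaks). Beyond 22 Mb the GFP_KD list held 13 peaks and the *enok*_KD list 0. The last *enok*_KD peak ended at 21816727, and 16 GFP_KD peaks lay beyond it, over the next 0.581 Mb. The proximal 2 Mb held 35.2% (58 peaks, interval 28.3 to 42.7) of the GFP_KD list and 38.2% (29 peaks, interval 28.1 to 49.4) of the *enok*_KD list. By covered length these shares were 40.6% and 50.6%, and over the proximal 4 Mb the order turned, with 62.4% of GFP_KD and 52.6% of *enok*_KD peaks.

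Long stretches of the arm had no peak. The widest in GFP_KD were 2.51 Mb from 9030300, 2.26 Mb from 13685888 and 1.86 Mb from 6328808. In *enok*_KD they were 4.64 Mb from 12063646, 2.17 Mb from 8189286 and 2.08 Mb from 16705834. Within the groups of peaks, neighbours were close. The median gap between neighbouring peaks was 1092 bp in GFP_KD (interquartile range 278 to 27193 bp, 164 gaps) and 1383 bp in *enok*_KD (402 to 13604 bp, 75 gaps). In GFP_KD 72.0% of gaps were at most 10 kb, and in *enok*_KD 74.7%. The ratio of the median gaps, 1.27, depended on how peaks were joined. It was 0.24 for peaks merged within 1 kb, 3.62 for peaks merged within 10 kb and 1.85 without the proximal 2 Mb, so no direction is given for the spacing.

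To describe these groups, peaks of both lists were joined into domains wherever they lay within 10 kb of each other, which gave 51 domains, numbered here from the telomere-side end. Of these, 16 held peaks of both lists, with 94 GFP_KD and 72 *enok*_KD peaks. A further 31 held only GFP_KD peaks, 71 in all, and 19 of them were single peaks. Only 4 domains held *enok*_KD peaks alone, each a single peak. So 72 of the 76 *enok*_KD peaks lay in domains that also had GFP_KD peaks, whereas 71 of the 165 GFP_KD peaks lay in domains without any *enok*_KD peak.

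**Figure D2:**
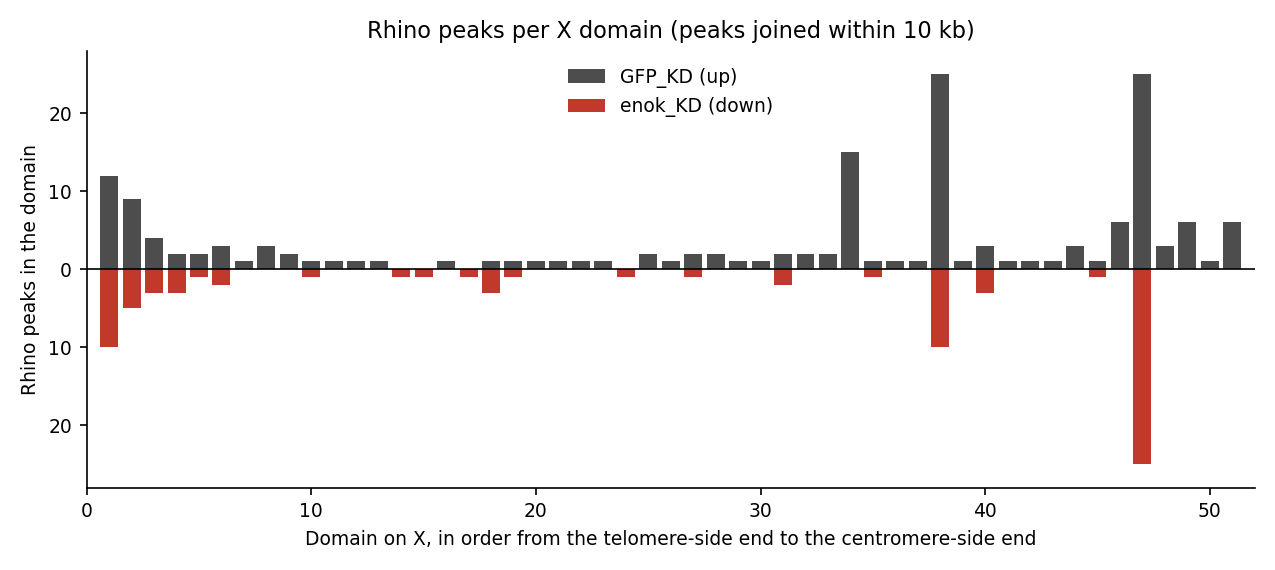
Number of Rhino peaks in each of the 51 domains of X (x axis, in order along the chromosome and not to scale) for GFP_KD (upward bars) and *enok*_KD (downward bars, y axis in peaks). Domain 47 has 25 peaks in both lists, domain 38 has 25 and 10, and domain 34 has 15 in GFP_KD and 0 in *enok*_KD.

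Domain 34 (18427070 to 18445085 on X) held the most peaks of the domains without any *enok*_KD peak. It held 15 GFP_KD peaks, covering 7.03 kb, and no *enok*_KD peak. Its highest peak by fold enrichment, 18432933 to 18434412, was 1480 bp long and had 107 reads at its summit over a local background of 12.7, a fold enrichment of 7.88. This was among the 5 highest fold enrichments of GFP_KD X peaks and the highest of those without an overlap. The second highest, 18435216 to 18435999, had a fold enrichment of 5.63 with 54 reads over 8.76. The other peaks of the domain had fold enrichments between 2.39 and 4.45. Near it lay domain 33 (18407212 to 18408657), with 2 GFP_KD and no *enok*_KD peaks, where the peak 18407212 to 18407792 had 80 reads over 12.7 and a fold enrichment of 5.91. Summit and background reads were scaled by the depth ratio of 0.830, with the background kept at least at the lowest of the *enok*_KD list. All 15 peaks of domain 34 still met both limits of that list, the p score of its weakest and the length of its shortest peak. The scaling is not an exact depth match, as the lowest backgrounds were 8.76 (GFP_KD) and 8.53 reads (*enok*_KD), and it allows for no counting error. Of the 63 shared GFP_KD peaks on X, only 53 met both limits, so they do not tell which peaks are called. The domain was named for its lack of *enok*_KD peaks, and the part of depth in this was not tested. The lists give no value where no peak was called, so the level of Rhi left in *enok*_KD in this domain is unknown.

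The base of the arm had 3 more groups of 6 GFP_KD peaks without an *enok*_KD peak. Domain 46 (21625842 to 21630459) had fold enrichments from 2.86 to 4.56, domain 49 (22083654 to 22090668) from 2.33 to 5.61, and domain 51 (22388071 to 22397721) from 2.31 to 5.47. The highest of domain 49, at 22084940 to 22085669, had 54 reads over 8.80. With domain 34, these made 4 of the 8 X domains of at least 5 GFP_KD peaks that had none in *enok*_KD (50%), beside 26.3% of 57 such domains on all chromosomes. On other chromosomes it was 11 of 49 (22.4%), and on 2L, 3L and 3R 7 of 23 (30.4%). With 8 domains on X, this difference rests on few domains. Domains entered this count by their GFP_KD peaks, so it can show only losses, and the reverse count was not made.

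Domain 38 (20068565 to 20105699) was thinned rather than emptied. GFP_KD had 25 peaks there covering 13.8 kb, and *enok*_KD 10 peaks covering 3.98 kb. All 10 *enok*_KD peaks lay on 7 of the GFP_KD peaks, and the other 18 GFP_KD peaks had no overlap. Of these 18, 13 still met both limits after the same scaling. By fold enrichment, the highest X peak of GFP_KD was in this domain, at 20070331 to 20071415, with 123 reads over 12.1 and a fold enrichment of 9.44. In *enok*_KD its summit had 69 reads over 18.9, a fold enrichment of 3.52. All 7 regions with peaks in both lists had a lower fold enrichment in *enok*_KD, as described with the shared regions below.

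In contrast, domain 47 (21759396 to 21816736) held the same number of peaks in both lists. Its 25 GFP_KD peaks had a summed length of 23.5 kb and its 25 *enok*_KD peaks one of 24.4 kb. Of these, 23 GFP_KD and 22 *enok*_KD peaks overlapped, and median fold enrichment was 3.48 for GFP_KD against 3.40 for *enok*_KD. It held 18 of the 35 piRNA source-locus bins that the deposited tables number as cluster 9. The *enok*_KD X peak of highest fold enrichment was here, at 21762144 to 21763521, with 150 reads over 17.4 and a fold enrichment of 8.19. Its GFP_KD counterpart, at 21762176 to 21763501, had 140 reads over 16.5 and 8.06. Of the 5 highest *enok*_KD peaks, 2 more were here, at 21770030 to 21771127 (7.03) and 21773200 to 21775991 (6.78). The longest GFP_KD X peak, 3281 bp at 21801672 to 21804952, matched an *enok*_KD peak of 3937 bp at 21801666 to 21805602. Domain 47 alone held 25 of the 76 *enok*_KD peaks, and without it the number in *enok*_KD was 36.4% of that in GFP_KD.

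The telomere-side end also had nearly as many peaks in *enok*_KD. The 7 source-locus bins there, described below, start at 19001, and 4 of them overlap domain 1, at its last part only. Their median change of Rhi occupancy was -0.54 (interval -1.04 to 0.40, all 7 bins). Domain 1 (4 to 22863) had 12 GFP_KD peaks covering 14.6 kb and 10 *enok*_KD peaks covering 14.4 kb, and every peak of either list overlapped one of the other. Local background was high there, with a median of 55.7 reads in GFP_KD and 64.6 in *enok*_KD over its shared regions. Long peaks of modest enrichment were found in it. The longest *enok*_KD peak, 6175 to 10402 (4228 bp), had 370 reads at its summit over 136.8 and a fold enrichment of 2.69, and it spanned 3 GFP_KD peaks. Of these, 6187 to 9373 (3187 bp) had 313 reads over 156.3 and a fold enrichment of 2.00. Another long pair was 13348 to 16405 (3058 bp) in GFP_KD, with a fold enrichment of 3.07, and 13094 to 16431 (3338 bp) in *enok*_KD, with 3.94. One peak of the domain differed from the rest. At 20849 to 22853 the GFP_KD peak had 106 reads over 10.7, a fold enrichment of 9.11 and the second highest on X, and the region had 68 reads over 13.6 and 4.73 in *enok*_KD. Next to it, domain 2 (99237 to 110835) had 9 GFP_KD and 5 *enok*_KD peaks.

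By overlap of at least 1 bp, 63 of the 165 GFP_KD X peaks were shared with *enok*_KD (38.2%, interval 31.1 to 45.8), beside 49.1% of GFP_KD peaks on all chromosomes. Conversely, 65 of the 76 *enok*_KD X peaks were shared with GFP_KD (85.5%, interval 75.9 to 91.7), beside 63.9% of *enok*_KD peaks on all chromosomes. The second of these was high on X. On all other chromosomes it was 61.7% (interval 58.1 to 65.1), and the first was 51.1% (interval 47.8 to 54.3), and neither interval overlapped that of X. The first share was not particular to X, with 37.2% on 2L, 39.2% on 2R and 32.3% on 3R, though 64.0% on 3L. The second ranged from 58.0% on 2L to 72.3% on 3L over 2L, 2R, 3L and 3R. Its intervals on 2R (61.7 to 76.7) and 3L (61.8 to 80.8) overlapped that of X. These intervals, too, count each peak as independent. The *enok*_KD peaks of X were thus to a large part a subset of those in GFP_KD. These shares depend on the unequal numbers. With the 76 X peaks of highest p score in each list, 51.3% of GFP_KD and 56.6% of *enok*_KD peaks were shared. Lists of equal size give nearly equal shares by construction, so this setting does not bear on which list holds the other.

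The 102 GFP_KD peaks without an overlap were shorter and had fewer reads than the 63 shared ones, at the same fold enrichment. Median fold enrichment was 3.37 (interquartile range 2.62 to 3.97) without an overlap and 3.38 (2.36 to 4.32) with one. Median length was 270 bp (198 to 414) against 546 bp (297 to 1105), and 2 of 102 against 19 of 63 were at least 1 kb long. A longer peak meets the rule of 1 bp overlap more easily, so part of this length difference follows from the rule. The median summit had 47 reads (37.3 to 54.0) against 86 (58.5 to 165.0), and the median local background was 12.7 against 23.4 reads. Fold enrichment is a ratio, and here peaks of the same ratio stood on unequal numbers of reads. After scaling to the depth of the *enok*_KD IP, 71 of the 102 peaks without an overlap (69.6%) and 53 of the 63 shared peaks (84.1%) met both limits. This scaling was chosen after the values were seen and is not an exact depth match. The shared peaks held 59.8% of the length covered in GFP_KD and 93.8% of that in *enok*_KD.

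**Figure D3:**
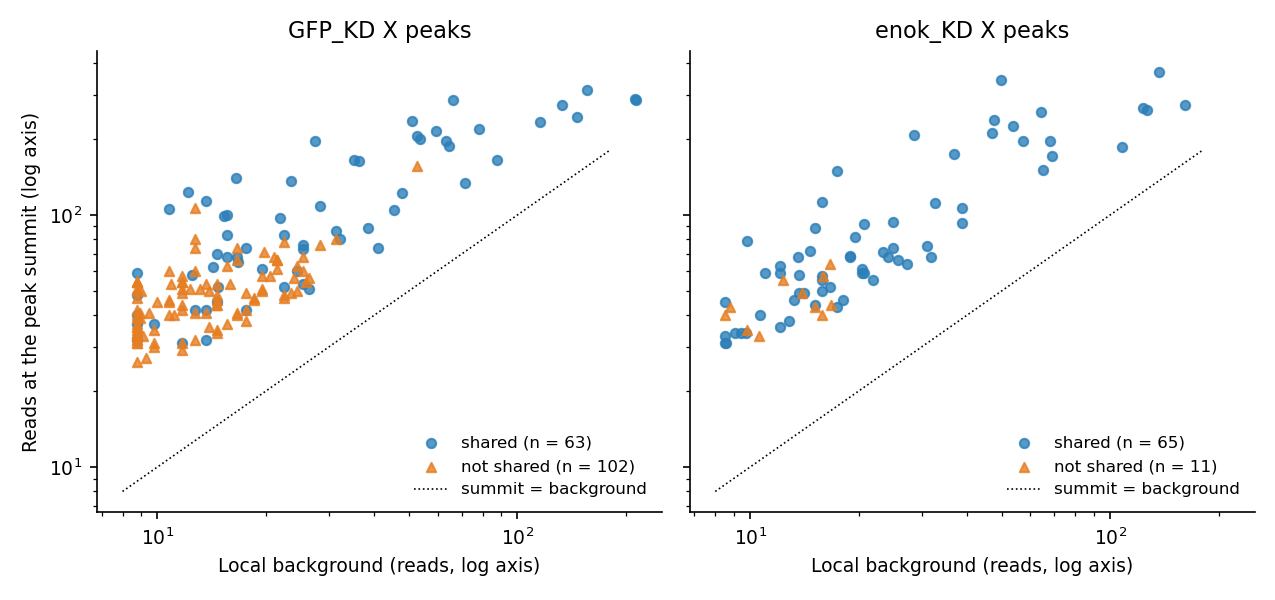
Reads at the summit (y axis, log scale) against local background reads (x axis, log scale) for the 165 GFP_KD (left) and 76 *enok*_KD (right) X peaks. Circles are peaks that overlap one of the other list and triangles those that do not. Of the GFP_KD peaks without an overlap, none has more than 157 reads, whereas shared peaks reach 313.

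Peaks without an overlap were more often far from the other list in GFP_KD than in *enok*_KD. The median distance to the nearest peak of the other list was 208 kb for the 102 GFP_KD peaks. Of these, 57 were more than 100 kb away and 31 within 10 kb. For the 11 *enok*_KD peaks the median was 1.16 kb, with 2 more than 100 kb away and 7 within 10 kb. Such distances depend on the number of peaks in the other list, which was 76 for GFP_KD peaks and 165 for *enok*_KD peaks. By fold enrichment, the highest GFP_KD peaks without an overlap, besides those of domains 33, 34 and 49, included a lone peak at 21398928 to 21399123 with 54 reads over 8.76 (5.63). The highest such *enok*_KD peak was at 4593509 to 4593750, 242 bp long, with 43 reads over 8.80 and a fold enrichment of 4.49. It was followed by 21815739 to 21815942 (40 reads, 4.30), 4999516 to 4999704 (55 reads, 4.20), 6326104 to 6326723 (64 reads, 3.69) and 659647 to 659968 (57 reads, 3.42). None of the 11 reached 1 kb. On all chromosomes 36.1% of *enok*_KD peaks had no overlap, beside 11 of 76 on X.

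Over all X peaks, median length was 332 bp (interquartile range 227 to 628) in GFP_KD and 366 bp (259 to 690) in *enok*_KD. The difference in median went the other way when GFP_KD peaks under 189 bp were left out, with a ratio of *enok*_KD to GFP_KD of 0.97 in place of 1.10. Among shared peaks alone, *enok*_KD peaks were shorter, with a median of 410 bp against 546 bp. Median fold enrichment was 3.38 for GFP_KD against 3.35 for *enok*_KD. Peaks sitting at the lowest background of their list were 21 of 165 and 4 of 76.

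Joining overlapping peaks gave 56 shared regions on X, and their median fold enrichment ratio was near equality. A region entered only if a peak was called in both lists, so sites without an *enok*_KD peak were left out in advance. Occupancy over input, described below, was lower in *enok*_KD in 10 of 13 source-locus bins with a peak in both lists. Their median change was -0.28 (interval -0.83 to 0.05). For each region the peak of highest fold enrichment in either list was compared. The median log2 ratio of these peaks, *enok*_KD over GFP_KD, was 0.02 (interquartile range -0.16 to 0.33), and 27 of 56 regions were lower in *enok*_KD (48.2%). Counted by shared GFP_KD peak, 28 of 63 on X were lower (44.4%), beside 44.9% on all chromosomes. The counting SE of a region's log2 ratio, from the summit reads alone, had a median of 0.24. In 38 regions the summits lay within 100 bp of each other, and their median was also 0.02. Domains 1 and 47 were near 0, with medians of 0.06 over 10 regions and 0.06 over 18.

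In domain 38, all 7 of its shared regions were lower in *enok*_KD, with a median log2 ratio of -1.13 and a range from -1.42 to -0.11. In 4 of them the summits lay within 100 bp of each other, and the median of these was -0.39, so the size of the difference depends on regions whose summits were apart. The 3 regions of X with the lowest ratios were all there. At 20070331 to 20071415 the log2 ratio was -1.42 (counting SE 0.22), with summits 29 bp apart. At 20092406 to 20093276 it was -1.19 (SE 0.23), from 7.84 to 3.44, with summits 407 bp apart. At 20084251 to 20086217 it was -1.13 (SE 0.24), from 6.14 to 2.80, with summits 421 bp apart. The median summit of the 7 regions had 109 reads in GFP_KD against 63 in *enok*_KD, and of the 4 regions with close summits 116 against 68.5. The median local background was 15.3 reads in GFP_KD against 18.9 in *enok*_KD over the 7 regions, and 19.5 against 18.9 over the 4.

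Other regions were higher in *enok*_KD. Domain 40 (20938461 to 20942288) lay on the centromere side of domain 38 and had 3 peaks in each list, all 3 pairs overlapping and with a higher fold enrichment in *enok*_KD. At 20940014 to 20940951 it went from 2.31 with 42 summit reads in GFP_KD to 5.58 with 89 in *enok*_KD, a log2 ratio of 1.27 (SE 0.27) with summits 27 bp apart. At 20941551 to 20942288 it went from 3.92 with 68 reads to 6.76 with 113. At the remaining pair the log2 ratio was 0.15, within counting error. All 3 summits had more reads in *enok*_KD. The lowest background of the whole list was 8.53 reads in *enok*_KD and 8.76 in GFP_KD. The recovered reads thus did not follow the depth ratio of 0.830 there. The local background went from 17.6 to 15.1 reads at the former region, from 16.6 to 15.9 at the latter and from 26.4 to 31.7 at the remaining pair. At 6328382 to 6328855 the *enok*_KD peak had 79 reads over 9.82 and a fold enrichment of 7.39, its second highest on X, against 4.37 in GFP_KD. The highest ratio of all, 1.29 at 21783980 to 21785331, compared summits 753 bp apart with backgrounds of 132.9 and 11 reads. The third highest, 1.17 at 8188909 to 8189688, compared summits 499 bp apart. In these 2 regions the peaks overlapped, but their summits were different sites, so their ratios are not read as higher Rhi enrichment. In the former region another *enok*_KD peak, 21784821 to 21785331, had its summit near that of GFP_KD. Fold enrichment there was 2.04 in both lists. The source-locus bins starting at 21783001, 21784001 and 21785001, which overlap this region, changed by -0.83, -1.02 and -0.69.

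**Figure D4:**
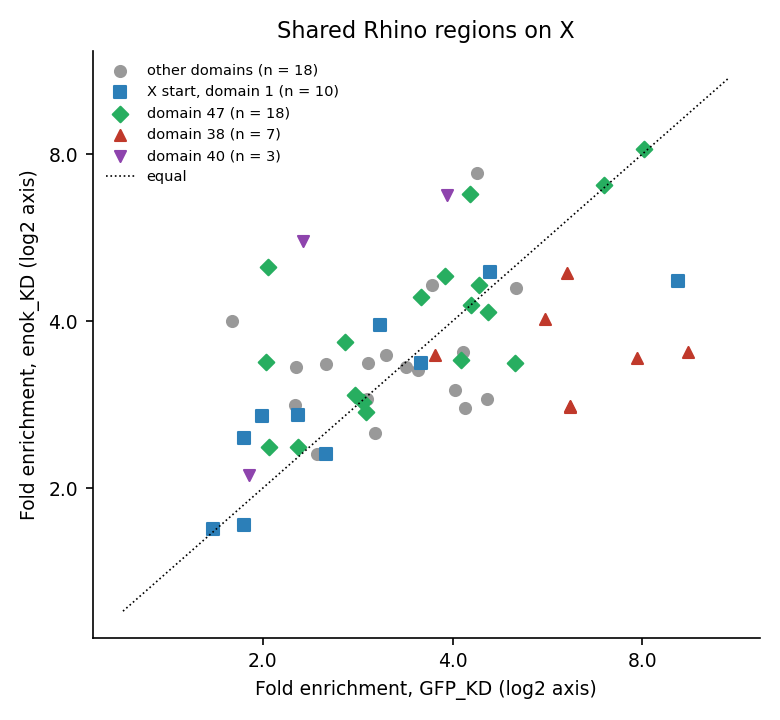
Fold enrichment in *enok*_KD (y axis, log2 scale) against GFP_KD (x axis, log2 scale) at the 56 shared Rhino regions of X, with 4 domains marked and the line of equal values dotted. The 7 regions of domain 38 lie below the line and the 3 of domain 40 above it, while domains 1 and 47 scatter around it.

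The deposited tables of 1 kb bins gave a second readout of the same IP libraries, here relative to the inputs. These bins are Rhi-dependent piRNA source loci, and 75 of the 2363 with reads in all libraries were on X. They cover few of the X peaks. Only 13 of the 165 GFP_KD and 12 of the 76 *enok*_KD peaks overlapped a bin, and no bin lay in domains 34, 38 or 40. Bins belonged to clusters 22 (7 bins, 19001 to 27378) and 8 (1 bin), which the tables class as Enok-bound, and to clusters 9 (35 bins, 21766001 to 21844063) and 45 (32 bins, 22343001 to 22383561), classed as Enok-unbound.

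Rhi occupancy, log2 of IP over input, was lower in *enok*_KD in most X bins. Bins changed by a median of -0.42 (95% interval -0.58 to -0.20 over bins, which are neighbours and not replicates). In all, 57 of 75 bins were lower (76.0%, interval 65.2 to 84.2), beside 53.7% of bins on all chromosomes. The median change over all other bins was -0.047. The input itself changed by a median of -0.032 in the X bins. The median counting SE of a single bin was 0.48. Among the 74 bins whose reads could be recovered, 14 were lower and 1 higher outside their 95% counting interval. These numbers were not computed for bins of other chromosomes, so they cannot be called particular to X.

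By cluster, occupancy in cluster 9 had a median of 1.81 in GFP_KD against 1.38 in *enok*_KD, a median change of -0.26 (interval -0.58 to -0.05) with 25 of 35 bins lower. Cluster 9 overlaps domain 47, which had 25 peaks in both lists. In cluster 45 the medians were 0.82 and 0.41, and 27 of 32 bins were lower by a median over the cluster of -0.52 (interval -0.65 to -0.31), although no peak of either list lay in its bins. In cluster 22, at the telomere-side end, the medians were 2.30 and 1.84 and the median change was -0.54 (interval -1.04 to 0.40), with 4 of 7 bins lower. Its bins at 21001 and 22001, in the shared region with the fifth lowest ratio, changed by -0.70 (counting SE 0.26) and -0.94 (SE 0.25). The bin of cluster 8, at 21586001 to 21587000 in domain 44, went from 1.10 to 0.046, a change of -1.05 (SE 0.16). Domain 44 had 3 GFP_KD peaks and no *enok*_KD peak. These 3 bins were picked after their values were seen. Bins with a peak in both lists (13) and bins with none (59) changed by medians of -0.28 and -0.42, so the lower occupancy was not limited to bins with a GFP_KD peak only.

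**Figure D5:**
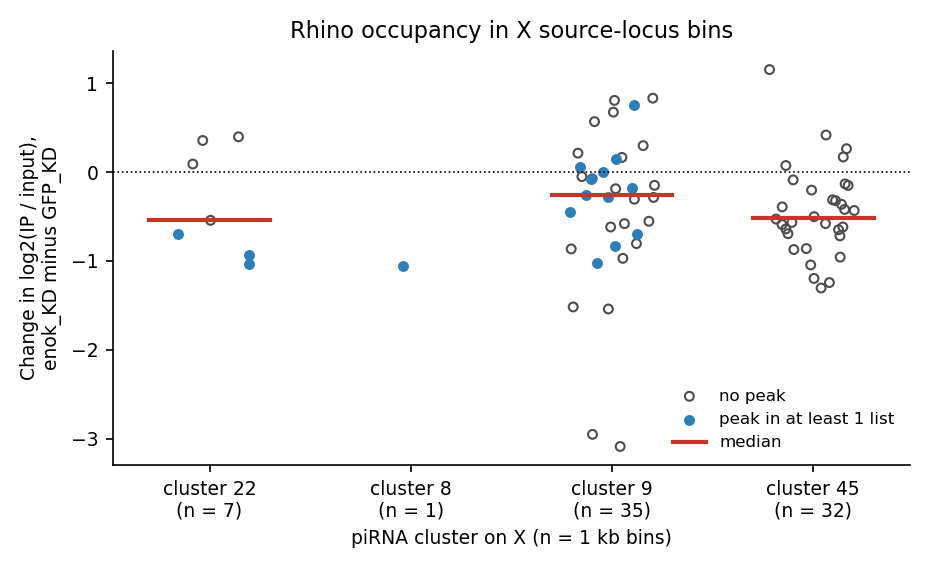
Change in Rhi occupancy, log2 of IP over input in *enok*_KD minus GFP_KD (y axis), in the 75 source-locus bins of X by piRNA cluster (x axis). Points are 1 kb bins, filled where at least 1 list has a peak, and bars are medians, at -0.26 in cluster 9 and -0.52 in cluster 45.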

How the data were processed

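The authors trimmed 101 bp single-end reads, aligned them to dm3 with 0 mismatches, kept unique mappers and called peaks on each IP library separately. The submitters' processing notes name Trimmomatic, Bowtie2 2.2.1 and MACS2. The control and settings of the peak caller are not given in the sources used here. The deposited peak lists give fold enrichment as a ratio over a local background, −log10 of a p-value and of a q-value, and 1-based positions. The deposited bin tables give RPM, which the authors scaled to uniquely mapped reads and divided by mappability. Sequence that cannot be placed uniquely therefore gave no signal.

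Fold enrichment was read as (summit reads + 1) over (background + 1) and the p score as the Poisson tail beyond the summit reads. This gave a single whole number of reads, within 0.001 of the p score, for 100% of 1066 and of 817 peaks. The smallest p scores were 5.04 and 5.07. Depth and bin reads were recovered from the RPM steps, after dividing out a common factor in 38 X bins, and not in 1 bin whose values were too high. The scripts were tested on simulated data.

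Intervals are exact (Clopper-Pearson) for number ratios, Wilson for shares, normal on the log scale for the ratio of X to other arms (chosen after seeing the data) and order statistics for bin medians, at the 95% level. Named regions were the 5 highest peaks by fold enrichment in each list with and without an overlap, the 3 longest peaks, fullest 1 Mb windows, fullest domains and widest empty stretches of each list, and the 3 shared regions with the highest and the lowest ratio. Domains, bins and groups named beyond this rule were chosen after their values were seen. The regions, rules and lists were chosen with earlier results of these data known. Alternatives changed the peak threshold, overlap rule, merging, chromosome part and domains included. Python 3.11.15, numpy 2.4.6, pandas 2.3.3, scipy 1.17.1 and matplotlib 3.10.9 were used. No sequence or gene annotation of dm3 was used here.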

Additional observations from a re-analysis of the deposited data

How the results depend on the processing

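Over the alternative settings the number of X peaks in *enok*_KD was 36.4% to 54.3% of that in GFP_KD. The covered length was 48.3% to 64.3%. The range of the number leaves out the depth scaling with both limits. That scaling left 124 of the 165 GFP_KD X peaks beside 76 in *enok*_KD, a percentage above the range. No paired analysis was possible because the groups have 1 library each. For the shares of overlapping GFP_KD and *enok*_KD peaks (38.2% and 85.5%), the peaks of at least median fold enrichment gave 29.1% and 65.7%, a reciprocal overlap of 50% gave 24.8% and 53.9%, and equal numbers by p score gave 51.3% and 56.6%. Equal numbers by fold enrichment gave 44.7% of *enok*_KD peaks, and a distance within 1 kb gave 50.9% of GFP_KD peaks. Equal numbers make the shares nearly equal by construction. Without domain 47, a setting chosen after seeing the data, 28.6% of GFP_KD peaks overlapped.

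The fold enrichment of shared over unshared GFP_KD peaks (1.00) became 1.75 with p scores, 0.93 with the reciprocal overlap and, chosen after seeing the data, 1.83 with summit reads. The length ratio of *enok*_KD to GFP_KD (1.10) became 1.70 for peaks of at least median fold enrichment, 0.50 on merging within 1 kb, 0.75 for shared peaks and, chosen after seeing the data, 0.97 without GFP_KD peaks shorter than any *enok*_KD peak. The gap ratio (1.27) became 0.24 on merging within 1 kb and 3.62 within 10 kb. The proximal shares became 62.4% of GFP_KD and 52.6% of *enok*_KD peaks over 4 Mb, and 50.6% of the *enok*_KD covered length. For these changes the cause was not tested. With at least 20 reads in every library, also chosen after seeing the data, the median bin change was -0.31 with 36 of 43 bins lower. Summits on X had as few as 26 reads, and differences between such peaks are within counting error.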
